A study of Mus musculus with 2 samples.

Results

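The mir-103/mir-107 family of the mouse has 3 microRNA genes, Mir103-1, Mir103-2 and Mir107, and all 3 are among the 1973 microRNA genes counted in the embryonic midbrain. They were chosen by symbol, through the Ensembl gene identifiers of GENCODE on mm10, and not by a threshold on their counts. Earlier results of these data were known when the choice was made. The data are 2 libraries of RNA shorter than 30 nt from the midbrain of B6NCrl mouse embryos of both sexes at embryonic day 10.5, when the neural tube consists mostly of dividing neuroepithelial cells. Replicate 1 is a pool of 69 embryos and replicate 2 a pool of 51 embryos, and the labels give them as biological replicates of 1 group, naming no treatment, mutant allele or second tissue. The libraries held 3297835 and 3682410 gene-assigned reads in replicates 1 and 2, and levels are given as CPM, reads per 1000000 gene-assigned reads.

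A microRNA is cut from a hairpin precursor, and either arm (5p or 3p) can be loaded on an Argonaute protein, where bases 2 to 8, the seed, pair with target mRNAs. Vertebrate mir-103 and mir-107 hairpins lie in introns of the Pank genes, which encode pantothenate kinases, the enzymes that start coenzyme A synthesis from vitamin B5. The 3p arms are known to target Dicer in human cells and caveolin-1 in mouse liver and fat, and in zebrafish miR-107 limits Dicer during hindbrain neurogenesis.

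The 3 hairpins are shown because the family is nearly uniform in the sequence of its mature arms, which bears on every count below. They are the RefSeq entries on GRCm38.p6, the same assembly as mm10, written 5′ to 3′ on the strand of the gene with the mature arms in capitals, and all 3 members matched.
Mir103-1, chr11:35782396-35782481, plus strand: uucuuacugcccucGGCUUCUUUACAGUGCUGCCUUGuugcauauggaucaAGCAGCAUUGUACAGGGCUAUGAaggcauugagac
Mir103-2, chr2:131288052-131288137, plus strand: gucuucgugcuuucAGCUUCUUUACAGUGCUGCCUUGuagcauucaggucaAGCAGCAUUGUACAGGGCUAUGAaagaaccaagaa
Mir107, chr19:34820687-34820773, minus strand: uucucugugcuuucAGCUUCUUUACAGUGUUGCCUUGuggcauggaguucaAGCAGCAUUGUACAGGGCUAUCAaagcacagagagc

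The 3p arms are shown next with the seed in capitals, since they define the family.
miR-103-3p (Mir103-1 and Mir103-2): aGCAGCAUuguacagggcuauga
miR-107-3p (Mir107): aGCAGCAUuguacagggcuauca
The 3p arms of Mir103-1 and Mir103-2 were identical over all 23 bases. The only substitution from miR-103-3p to miR-107-3p was G22C, counted from 1 at the 5′ end, so the seed was the same. Among the 1738 mature entries of the RefSeq table, this seed occurred in these 3 genes and in no other. The 5p arms differed more. Between miR-103-1-5p and miR-103-2-5p the substitution was G1A, and between miR-103-2-5p and miR-107-5p it was C16U. Those 5p arms also shared their own seed, found in no other entry:
miR-103-1-5p: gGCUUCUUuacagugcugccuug
miR-103-2-5p: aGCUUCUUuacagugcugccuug
miR-107-5p: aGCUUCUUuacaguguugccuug

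The 3 hairpins sat at the same place in their host genes. Mir103-1 (ENSMUSG00000065553.1) lies in intron 5 of Pank3 (transcript Pank3-201), at chr11:35781708-35783447, an intron of 1740 bases. Mir103-2 (ENSMUSG00000065563.1) lies in intron 5 of Pank2 (Pank2-204), at chr2:131287598-131293398, of 5801 bases. Mir107 (ENSMUSG00000065594.1) lies in intron 5 of Pank1 (Pank1-201), at chr19:34813818-34821099, of 7282 bases. Each host transcript has 7 exons, and the exons on either side of the intron measure 124 and 126 bases in all 3 genes. Each hairpin is on the strand of its host, and 688 bases of Pank3, 454 bases of Pank2 and 326 bases of Pank1 separate it from the upstream exon. No annotated host transcript has an exon over a hairpin, and no further gene overlaps any of them. The host mRNAs were not measured in these libraries of short RNA.

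**Figure D1:**
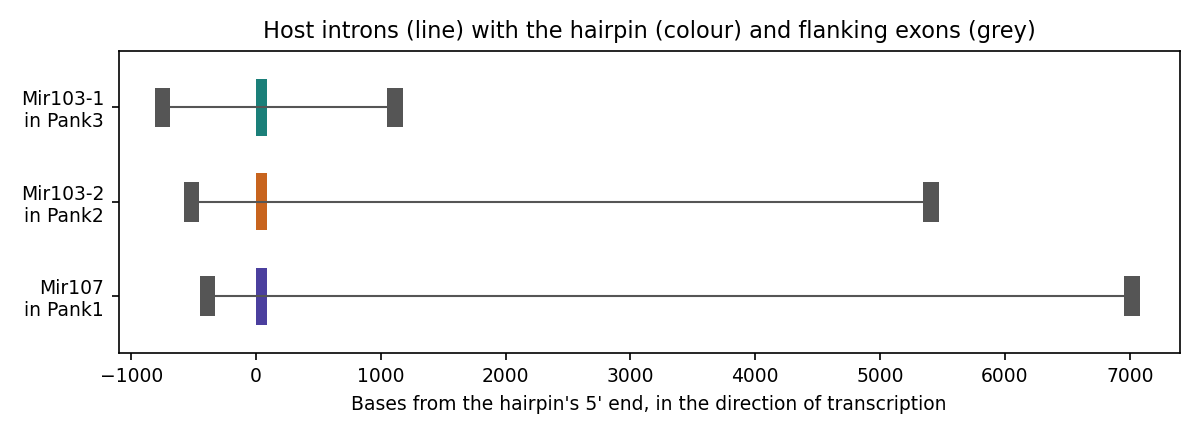
Map of the 3 host introns, drawn to scale in bases from the 5′ end of the hairpin in the direction of transcription, with the hairpin in colour, the intron as a line and the flanking exons in grey. The hairpins lie 688, 454 and 326 bases into introns of 1740 (Pank3), 5801 (Pank2) and 7282 bases (Pank1), between exons of 124 and 126 bases.

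The shared sequence limits which reads could be counted. In the deposited files, reads that map to several places are kept in a separate row and enter no gene's count. They numbered 2412710 (30.9% of the library) in replicate 1 and 2775444 (29.5%) in replicate 2. How many of these are miR-103 or miR-107 was not analysed here, since the row gives no sequence. Among the 1005 RefSeq hairpins, a perfectly matching read from the first base of the 3p arm occurs in all 3 members up to a length of 21 bases. At 22 bases such a read of Mir107 occurs in Mir107 alone. A 3p read of Mir103-1 or Mir103-2 occurs in both genes from 22 bases on, the mature 23 bases included, and in 1 hairpin only from 25 bases on. The longest run shared by the hairpins of Mir103-1 and Mir103-2 was 27 bases, against 24 bases for each of them with Mir107. The 5p arms are easier to place, because from their first base a read of 18 bases already occurs in 1 hairpin only. From base 2 of the 5p arm, however, reads of up to 23 bases occur in both Mir103-1 and Mir103-2. Of all 22-base windows, 8 of 65 in Mir103-1 (12.3%), 10 of 65 in Mir103-2 (15.4%) and 5 of 66 in Mir107 (7.58%) occurred in another hairpin, in each case 1 of the family. These matches cover microRNA hairpins and not the rest of the genome, and take no account of mismatches that an aligner may allow.

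**Figure D2:**
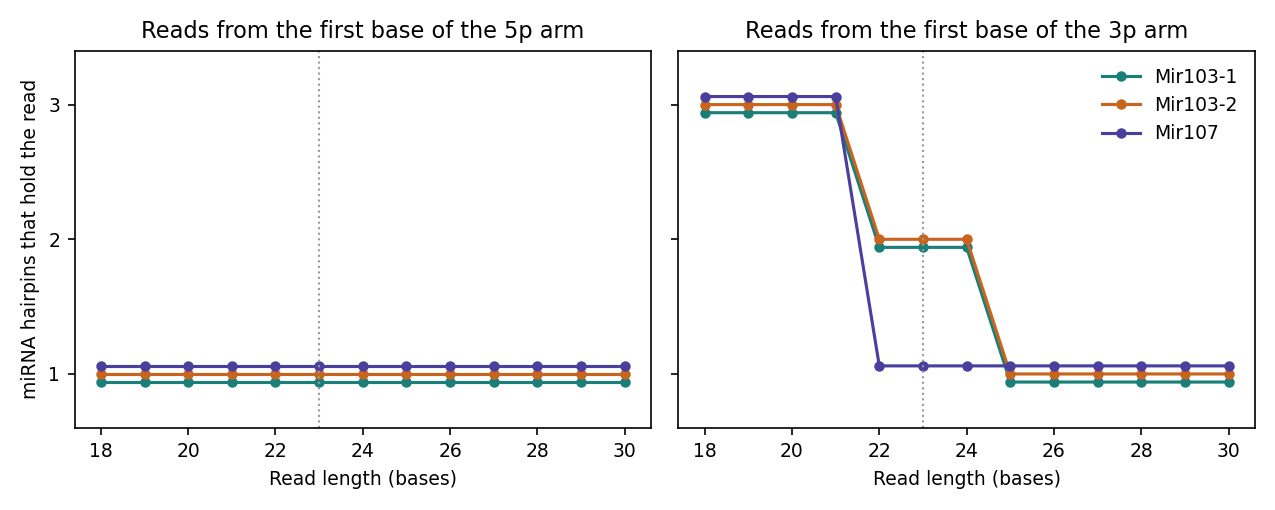
Number of RefSeq microRNA hairpins that hold a perfectly matching read (vertical axis, points shifted slightly so that the lines can be told apart) by read length in bases, for reads from the first base of the 5p arm (left) and 3p arm (right). The dotted line marks the 23 bases of the mature arms, at which a 3p read occurs in 1 hairpin for Mir107 and in 2 for Mir103-1 and Mir103-2.

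The family was present at moderate to low levels, led by Mir107. Mir107 had 4823 reads in replicate 1 and 4280 in replicate 2, which is 1462 and 1162 CPM. Its mean was 1312 ± 212 CPM (SD, n = 2). Mir103-2 had 400 and 310 reads, or 121 and 84.2 CPM, with a mean of 103 ± 26.2 CPM (SD, n = 2). Mir103-1 had 33 and 13 reads, or 10.01 and 3.53 CPM, with a mean of 6.77 ± 4.58 CPM (SD, n = 2). Each member was lower in replicate 2, and no value of any member overlapped that of another. These are levels of reads that could be given to 1 gene, and not of the mature microRNAs miR-103 and miR-107.

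All reads of the 3 genes lay in the strand column that holds 97.4% and 97.3% of the gene-assigned reads, taken here as the gene's own strand, since the files do not name it. The other strand column held 0 reads of each member in both libraries. With 9103 reads in sum for Mir107, a count of 0 allows up to 0.0330% on the other strand, and it allows up to 0.423% for Mir103-2 and 6.52% for Mir103-1, counting error only.

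By mean CPM, Mir107 stood at rank 98, Mir103-2 at rank 217 and Mir103-1 at rank 359 of the 1973 genes. The ranks in replicates 1 and 2 were 92 and 100 for Mir107, 208 and 230 for Mir103-2, and 331 and 396 for Mir103-1. All 3 had at least 10 reads in both libraries, as did 399 of all genes (20.2%). The top of the scale was Mir335, an intronic microRNA of the imprinted gene Mest, at 127345 CPM. By mean CPM per base of the annotated gene (87 bases for Mir107 and 86 for each of the others), a scale added after the data were seen, the ranks of Mir107, Mir103-2 and Mir103-1 were 99, 219 and 366.

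**Figure D3:**
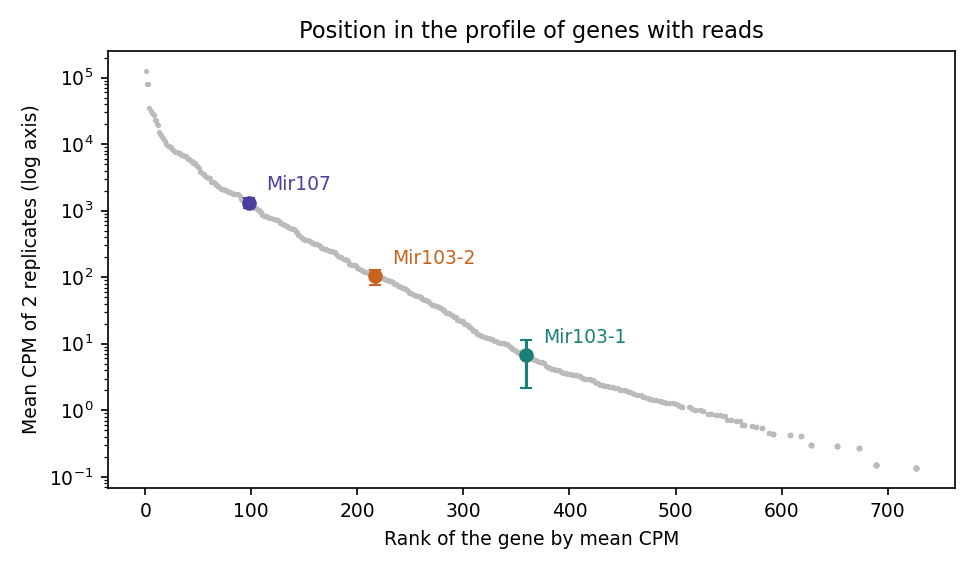
Mean CPM of the 2 replicates (log axis) against the rank of each gene with reads, 1 point a gene, with the family members in colour and bars of 1 SD (n = 2). Mir107 lies at 1312 CPM, Mir103-2 at 103 CPM and Mir103-1 at 6.77 CPM.

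As a whole the family held 5256 gene-assigned reads in replicate 1 and 4603 in replicate 2. These are 0.159% (95% Wilson interval 0.155 to 0.164%) and 0.125% (0.121 to 0.129%) of the gene-assigned reads. Mir107 made up 91.8% of the family's gene-assigned reads in replicate 1 and 93.0% in replicate 2. Mir103-2 made up 7.61% and 6.73%, and Mir103-1 0.628% and 0.282%. These intervals and those below take reads as independent, which cannot be known without molecular identifiers, and so cover counting error only.

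Within a library the members can be compared free of its depth, but not of how many of their reads can be given to 1 gene. At 23 bases a 3p read occurs in 1 hairpin for Mir107 and in 2 for Mir103-1 and Mir103-2. The ratios are thus of counted reads, and not of the mature microRNAs. Mir107 had 12.1 times the reads of Mir103-2 in replicate 1 (95% exact interval 10.9 to 13.4) and 13.8 times in replicate 2 (12.3 to 15.5). Per annotated base these ratios were 11.9 and 13.6. The intervals of the pools overlapped. Mir107 had 146 times the reads of Mir103-1 in replicate 1 (104 to 213) and 329 times in replicate 2 (192 to 619). Mir103-2 had 12.1 times those of Mir103-1 in replicate 1 (8.49 to 17.9) and 23.8 times in replicate 2 (13.7 to 45.3), and the annotated genes are equally long. The order Mir107, Mir103-2, Mir103-1 thus held in both libraries, and each gap was larger than the spread between replicates, which as an SD of the log2 ratio was 0.14 for Mir107 over Mir103-2, 0.83 for Mir107 over Mir103-1 and 0.69 for Mir103-2 over Mir103-1, against mean log2 ratios of 3.69, 7.78 and 4.09. An exact permutation test of 2 values against 2 cannot give a two-sided p below 0.333, so none was used.

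All 3 members had more reads in the replicate 1 library, relative to its size, than in that of replicate 2. With edgeR TMM scaling, the log2 ratio of replicate 1 over replicate 2 was 1.50 for Mir103-1 (95% counting interval 0.53 to 2.55), 0.52 for Mir103-2 (0.30 to 0.74) and 0.33 for Mir107 (0.27 to 0.39). A two-sided exact binomial test on the reads, which sets the difference between these libraries against counting error alone, gave Benjamini-Hochberg adjusted p-values of 0.00266 for Mir103-1, 6.01e-06 for Mir103-2 and 2.43e-26 for Mir107 over 485 tested genes. The same test called 241 of the 485 genes (49.7%), 129 higher (26.6%) and 112 lower (23.1%) in replicate 1, so that a call is common between these libraries, and differences between pools cannot be told apart from those between library preparations. The median log2 ratio was 0.52 over the 3 members and 0.02 over all tested genes, and 3 of 3 members and 50.9% of the tested genes had a ratio above 0. The ratio of Mir107 was below the upper quartile of all tested genes (0.35), that of Mir103-2 between the upper quartile and the ninetieth percentile (0.73), and that of Mir103-1, which rests on the fewest reads, above it.

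**Figure D4:**
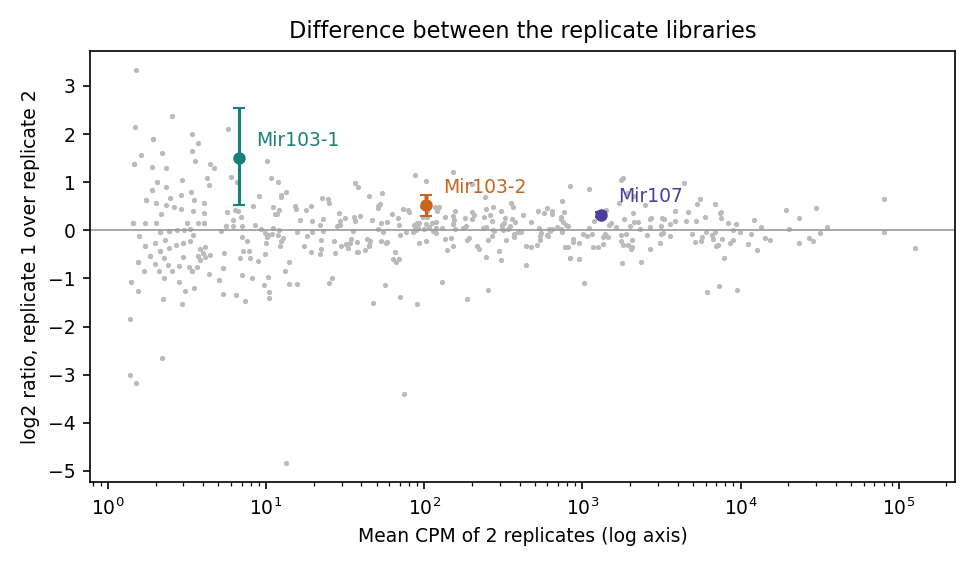
Log2 ratio of replicate 1 over replicate 2 against mean CPM (log axis) for the 485 tested genes, with the family members in colour and bars of the 95% counting interval. The members lie at 1.50 (Mir103-1), 0.52 (Mir103-2) and 0.33 (Mir107), all above 0.

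Among the tissue markers, the neural list summed to 21886 CPM in replicate 1 and 25849 CPM in replicate 2 over 8 counted genes. Nearly all of it was Mir92b, a microRNA of neural progenitors, with 21245 and 25352 CPM and a log2 ratio of −0.26. Of 6 neural genes tested, 4 were called between the libraries. Of all tested genes 49.7% were called, 26.6% higher and 23.1% lower in replicate 1. Mir92b was lower in replicate 1, and Mir9-3 (1.03), Mir124a-2 (0.79) and Mir135a-1 (0.31) were higher, as the family members were. Not called were Mir135a-2 (0.09) and Mir124a-3 (−0.93), the latter opposite in direction to Mir124a-2. Of the 16 and 34 reads of Mir124a-3 in replicates 1 and 2, 9 and 14 lay in the strand column not taken as the gene's own. The median log2 ratio was 0.20 over the 6, against 0.02 over all tested genes, and the 6 differed in direction. Whether the neural genes differed as a set was not tested. The highest marker was Mir126a of endothelium, with 26449 and 30780 CPM. The erythroid list summed to 386 and 339 CPM, with Mir451a (0.26) called higher and Mir144 (−0.45) called lower in replicate 1. Mir122 of liver had 5.76 and 15.2 CPM, Mir223 of myeloid cells 314 and 311 CPM, and of 4 counted muscle genes 3 had no reads. Reads that map to several places are left out of these counts too. A low or absent count therefore does not show that a marker is absent, and the counts do not rank the tissues. MicroRNAs embedded in the Hox clusters, which mark tissue behind the midbrain, summed to 155 CPM in replicate 1 and 384 CPM in replicate 2. Of these, 4 of 4 tested were called lower in replicate 1, against 23.1% of all tested genes, whereas the 3 family members were higher. Whether the makeup of the pools bears on the family's ratios was not tested, and in bulk tissue fewer cells of a type and fewer copies per cell cannot be told apart.

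The genes most like each member over the 2 libraries were found by the Euclidean distance in log2 CPM among genes with at least 10 reads in both. Mir107 was nearest to Mir125b-1 (5283 and 4415 reads, distance 0.139) and Mir154 (4161 and 4060 reads, 0.226). Mir103-2 was nearest to Mirlet7f-2 (396 and 301 reads, 0.0449) and Mir33 (390 and 327 reads, 0.0852), the microRNA of the sterol regulator gene Srebf2. Mir103-1 was nearest to Mir6900 (27 and 14 reads, 0.309) and Mirlet7b (29 and 16 reads, 0.353). With 2 libraries this likeness is chiefly one of level.

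The mir-103/mir-107 seed is offset by 1 base from that of the mir-15/16 microRNAs, known to restrain the cell cycle. Bases 1 to 7 of miR-103-3p and miR-107-3p equal bases 2 to 8 of the following microRNAs, shown with those bases in capitals.
miR-16-5p (Mir16-1 and Mir16-2): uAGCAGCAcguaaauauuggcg
miR-15a-5p (Mir15a): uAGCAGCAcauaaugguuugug
miR-322-5p (Mir322): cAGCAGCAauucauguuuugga
In RefSeq, 11 genes carry this offset seed, and the 10 counted here, of which 6 had at least 10 reads in both libraries, summed to 25347 CPM in replicate 1 and 26428 CPM in replicate 2. The 3 family members summed to 1594 and 1250 CPM. The most abundant relative was Mir322, of the X-linked Mir322 and Mir503 cluster, at 15400 ± 1480 CPM (SD, n = 2), or 16211 CPM per 100 bases of the annotated gene, against 1508 CPM per 100 bases for Mir107. Mir15a had 4485 ± 451 CPM and Mir16-1 3147 ± 151 CPM. Of the 9 counted genes in the list of these relatives, which also takes in Mir503 and Mir497b, 8 were tested and 7 called, 5 higher and 2 lower in replicate 1, where 49.7% of all tested genes were called, 26.6% higher and 23.1% lower. Their median log2 ratio was 0.13, against 0.02 over all tested genes. Mir15a (0.20) and Mir16-2 (0.46) were among those higher in replicate 1, and Mir322 (−0.20) was lower. The strand column not taken as the gene's own held 1659 of 1659 reads of Mir497b in replicate 1 and 1637 of 1641 in replicate 2, and in the gene's own strand column 6 of the list were called.

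The mir-26 family has the same layout, with 3 copies in introns of the paralogous Ctdsp phosphatase genes. Its 5p arms are shown because they too come in a form shared by a pair of genes and a form of a single gene.
miR-26a-5p (Mir26a-1 and Mir26a-2): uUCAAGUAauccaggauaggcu
miR-26b-5p (Mir26b): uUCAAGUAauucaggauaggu
Mir26b had 84752 and 104620 reads, or 27055 ± 1917 CPM (SD, n = 2). Mir26a-2 had 96 and 100 reads and Mir26a-1 20 and 30 reads. As in the mir-103/mir-107 family, the gene with no mature arm in common with another had the most reads, and the genes that share an arm had few. A shared arm did not always go with few reads, since Mir16-1, which shares miR-16-5p with Mir16-2, had 3147 ± 151 CPM. Mir26b had 883 times the reads of Mir26a-2 in replicate 1 (95% exact interval 723 to 1090) and 1046 times in replicate 2 (860 to 1286), or 872 and 1034 times per annotated base. The matching ratios of Mir107 over Mir103-2 were 12.1 and 13.8. What part of these gaps comes from reads that map to several places was not tested. Of the 3 mir-26 genes 1 was called between the libraries, Mir26b at −0.15, lower in replicate 1. Of all tested genes 49.7% were called and 23.1% were called lower. With far fewer reads, a difference of this size in Mir26a-1 or Mir26a-2 could go uncalled.

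**Figure D5:**
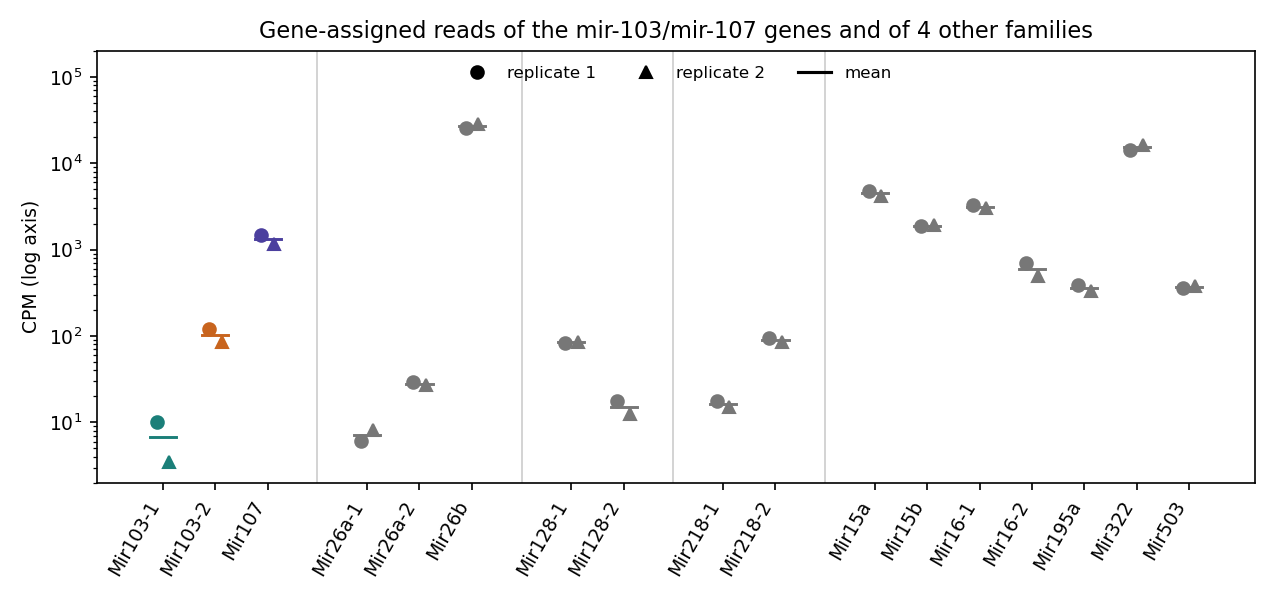
CPM (log axis) of the mir-103/mir-107 genes in colour and of genes of 4 other families in grey, with circles for replicate 1, triangles for replicate 2 and lines for their mean. Mir107 (1312 CPM) and Mir26b (27055 CPM), which have no arm in common with another gene, lie above the members of their families that do. Mir16-1 (3147 CPM), which shares an arm with Mir16-2, lies above Mir107.

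The mir-128 and mir-218 genes also share a mature arm between a pair of copies in introns, and their more abundant copies did not differ from Mir103-2 (103 ± 26.2 CPM) beyond its spread, with 84.6 ± 1.31 CPM for Mir128-1 and 89.95 ± 7.01 CPM for Mir218-2 (SD, n = 2). Mir128-1 of R3hdm1 had 276 and 315 reads and Mir128-2 of Arpp21 had 59 and 46 reads. Mir218-2 and Mir218-1, of the axon guidance genes Slit3 and Slit2, had 313 and 313 reads and 58 and 56 reads in replicates 1 and 2. The more abundant copy exceeded the other by 4.68 and 6.85 times for mir-128, 5.40 and 5.59 times for mir-218, 4.80 and 3.33 times for mir-26a and 4.69 and 6.07 times for mir-16. The exact intervals of Mir103-2 over Mir103-1 given above (8.49 to 17.9 and 13.7 to 45.3) lay above those of mir-218 (4.07 to 7.27 and 4.19 to 7.57), mir-128 (3.52 to 6.31 and 5.01 to 9.55), mir-26a (2.94 to 8.21 and 2.20 to 5.19) and mir-16 (4.48 to 4.91 and 5.78 to 6.38) in each library. These intervals are of counted reads and cover counting error only, and what part of each pair's reads maps to several places was not tested. Per annotated base the ratios were 5.08 and 7.43 for mir-128 and 5.14 and 3.57 for mir-26a. No mir-128 or mir-218 gene was called between the libraries by the exact binomial test, also with DESeq2 size factors. Of these 4 genes, 0 had an unadjusted p under 0.05 in this test. Of the 485 genes tested, 49.7% were called and 259 had an unadjusted p under 0.05. With few reads a difference may go uncalled. Mir33 (0.41) and Mir153 (0.77), an intronic microRNA of the Ptprn2 gene, were both called higher in replicate 1, as were 26.6% of all tested genes.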

How the data were processed

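Small RNA of the midbrain was sequenced in 2 libraries of 1 group. The authors deposited raw read counts per gene, from an mm10 alignment counted on GENCODE M4, as the descriptions deposited by the authors state. The deposited files have 3 unnamed count columns, and the first, which is the other 2 added up, was used. For aligner, trimming and settings nothing is given in the sources used here. Of 1973 gene identifiers 1894 matched GENCODE M21 (GRCm38), which gave symbols, coordinates and hosts. The 79 others held 4 and 7 reads. The libraries held 7810040 and 9423767 reads in all, and low counts limit precision as the intervals show. Sequences are from RefSeq (GRCm38.p6). Shared mature arms were matched by symbol for 916 genes.

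The exact binomial test took genes with at least 10 reads over both libraries, TMM-scaled library sizes (edgeR 4.0.16) and Benjamini-Hochberg adjustment at 0.05. It was run on simulated counts that hold counting error only, so the simulation says nothing on variation between pools or preparations. With 1 library a pool, its p-values measure differences between these libraries against counting error only. Alternatives were DESeq2 1.42.0 size factors, total counts, other filters, denominators, strand column, window lengths and leaving out each replicate. Named genes were the members, the 2 nearest genes of each, listed relatives and markers, and the top gene. The members and lists were chosen with earlier results of these data known. Python 3.11.15, scipy 1.17.1, statsmodels 0.14.6 and R 4.3.3 were used.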

Additional observations from a re-analysis of the deposited data

How the results depend on the processing

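The calls of the 3 members and the directions of their replicate ratios held under every scaling, filter and strand alternative run. The log2 ratio of replicate 1 over replicate 2 ranged from 1.46 to 1.50 for Mir103-1 (adjusted p 0.0026 to 0.00421, exact binomial test), which with 46 reads in sum was not testable at 100 reads or more, from 0.49 to 0.53 for Mir103-2 and from 0.29 to 0.33 for Mir107. DESeq2 size factors gave 115 genes higher and 120 lower in replicate 1, against 129 and 112 with TMM. With all reads as denominator, Mir107 had 536 and Mir103-2 42.1 reads per 1000000 and the family 0.0581%, and with multiply mapped reads added to the gene-assigned ones 754 and 59.0 reads per 1000000 and 0.0817%. With 1 replicate left out, the rank of Mir107 was 92 or 100, and the median of detected genes with no shared mature arm was 169 or 173 CPM. In windows of 18 bases, the shared part of the hairpin was 23.2% for Mir103-1, 31.9% for Mir103-2 and 18.6% for Mir107, and in windows of 25 bases 4.84%, 4.84% and 0%, as longer windows match less. Over all counted genes and not only detected ones, the medians were 4.41 CPM with and 0.862 CPM without a shared mature arm, which turns their order round. Replicate ratios cannot be had from 1 library. No paired analysis was possible because the samples form 1 group.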

Other observations

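Of the 916 counted genes with a mature entry in RefSeq, 87 share a mature arm with another gene, as Mir103-1 and Mir103-2 do, and 829, Mir107 among them, do not. Of the 87, 43 (49.4%) reached 10 reads in both libraries, and of the 829, 309 (37.3%), with a median of 93.2 and 177 CPM among those detected. Over all counted genes the order of the medians was the opposite, with 4.41 CPM for the 87 and 0.862 CPM for the 829. The genes with a shared arm held 3.22% of the gene-assigned reads.

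The match by symbol found 53 pairs of genes with a shared arm, and in 17 of them both genes had at least 10 reads in both libraries. Genes without a match could not enter, so these pairs are not every pair of gene copies. In counted reads, the more abundant copy exceeded the other by a median of 3.32 times (range 1.22 to 49.0, geometric mean of the libraries). Mir103-2 over Mir103-1, at 17.0 times, was second in this order after Mir181b-2 over Mir181b-1, a pair named after its values were seen, with 8155 and 4263 reads against 161 and 90.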
